A study of Mus musculus with 2 samples.

Results

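Extracellular proteases and their inhibitors were examined in poly(A)+ RNA of C57BL/6J mouse ES (embryonic stem) cells. Members were chosen by gene symbol: the ADAM, ADAMTS, ADAMTS-like, MMP and TIMP families, the serpins other than Serpinh1, and 14 further genes named by symbol, 13 of which the table listed. The rule found 69 of the 13620 genes in the deposited table, of which 44 were classed as proteases, 20 as inhibitors and 5 as neither. GENCODE M21 names 165 genes by the same rule, and the other 96 were not analysed here. The study compared 1 library of Fbxl10 T/T cells with 1 library of wild-type (WT) cells. Fbxl10 is an older symbol of Kdm2b, whose protein binds CpG islands as part of a variant Polycomb complex. The labels do not state what the T allele alters or whether each line was a single clone. Both lines were cultured in serum with leukemia inhibitory factor over growth-arrested mouse embryonic fibroblasts, which were then depleted by attachment, so both libraries could hold some fibroblast RNA. With 1 library per genotype no difference between the genotypes could be tested, and "higher" and "lower" describe these 2 libraries.

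Proteases outside the cell cut matrix proteins, release growth factors and shed receptors, and each class is held in check by its own inhibitors. ADAM, ADAMTS and MMP enzymes use a zinc ion and are blocked by TIMPs, whereas plasminogen activators and coagulation enzymes are serine proteases, blocked by serpins and Kunitz-type inhibitors. Proprotein convertases cut many of the other enzymes and several growth factors into their active forms. In the early mouse embryo the parietal endoderm is known for secreting tissue-type plasminogen activator.

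The values are normalised CPM, gene read counts per 1000000 reads of a library size set by the authors. Whole reads could be recovered from them and numbered 27109446 in Fbxl10 T/T and 21198574 in WT, so 3 reads corresponded to 0.122 and 0.126 CPM. Kdm2b itself was at 10.6 CPM in Fbxl10 T/T and 102.5 CPM in WT, 9.66-fold lower with a counting interval of 8.50- to 11.0-fold. ES cell markers were 2-fold lower in 9 of 13 cases and higher in none, with a summed level of 2213 CPM in Fbxl10 T/T and 7742 CPM in WT. Nanog, for example, was at 48.8 CPM in Fbxl10 T/T and 782.5 CPM in WT, so this defining ES cell marker was low in the library labelled Fbxl10 T/T. Of 25 endoderm markers 20 were higher and 2 lower, and their sum was 78822 CPM in Fbxl10 T/T and 9511 CPM in WT. Of 20 fibroblast markers none was higher and 4 were lower, and they summed to 874.8 CPM in Fbxl10 T/T and 1650.0 CPM in WT. The median log2 ratio of these 20 was -0.84. Col1a1 went against this median, at 117.3 CPM in Fbxl10 T/T and 101.6 CPM in WT, and the fibroblast markers Lum and Dpt were not analysed here. All 6 measured trophoblast markers were lower, with a sum of 17.7 CPM in Fbxl10 T/T and 181.0 CPM in WT. Of 5 blood and endothelium markers 2 were higher, Cdh5 at 44.2 CPM in Fbxl10 T/T and 3.94 CPM in WT and Csf1r at 48.6 CPM in Fbxl10 T/T and 5.36 CPM in WT, and 2 were lower, Pecam1 and Cd68, with a list sum of 122.9 CPM in Fbxl10 T/T and 113.0 CPM in WT. The part that any of these markers plays in the results below was not tested. In bulk RNA, fewer cells of a type and less RNA per cell cannot be told apart.

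The protease genes diverged: some, such as Adamts9, Plat and Furin, were several-fold higher in Fbxl10 T/T, and others, such as Pcsk6 and Mmp11, were several-fold lower. The log2 ratio of a gene is that of (CPM + 0.5) in Fbxl10 T/T over WT, which understates the ratios of low genes, and a gene at 1 or more on this scale was counted as 2-fold higher. All 69 members reached 1 CPM in at least 1 library. Of these, 18 were 2-fold higher (26.1%, where 14.8% of all 13512 genes at 1 CPM were), 21 were 2-fold lower (30.4%, where 20.6% of all genes were), and 30 lay in between. Some counts were set by the floor of the table, since 5 members were under 1 CPM in WT and 11 under 1 CPM in Fbxl10 T/T and could be listed only through the other library. Among the 53 members at 1 CPM or more in both libraries, 14 were higher and 12 lower, against 15.7% and 13.1% of all such genes. With the libraries rescaled to a common upper quartile, 16 members were higher and 27 lower, against 10.6% and 24.1% of all genes. At a 4-fold threshold, 13 members were higher and 6 lower, against 3.84% and 9.1% of all genes. An exact test in edgeR that takes the replicate variation to be 0.4, an assumed value, with a limit of 0.05 on the adjusted p counted 9 higher and 7 lower, against 2.74% and 9.7% of all genes, and it compares these libraries and not the genotypes. The median log2 ratio of the 69 members was -0.30, and that of all genes was 0.02.

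**Figure D1:**
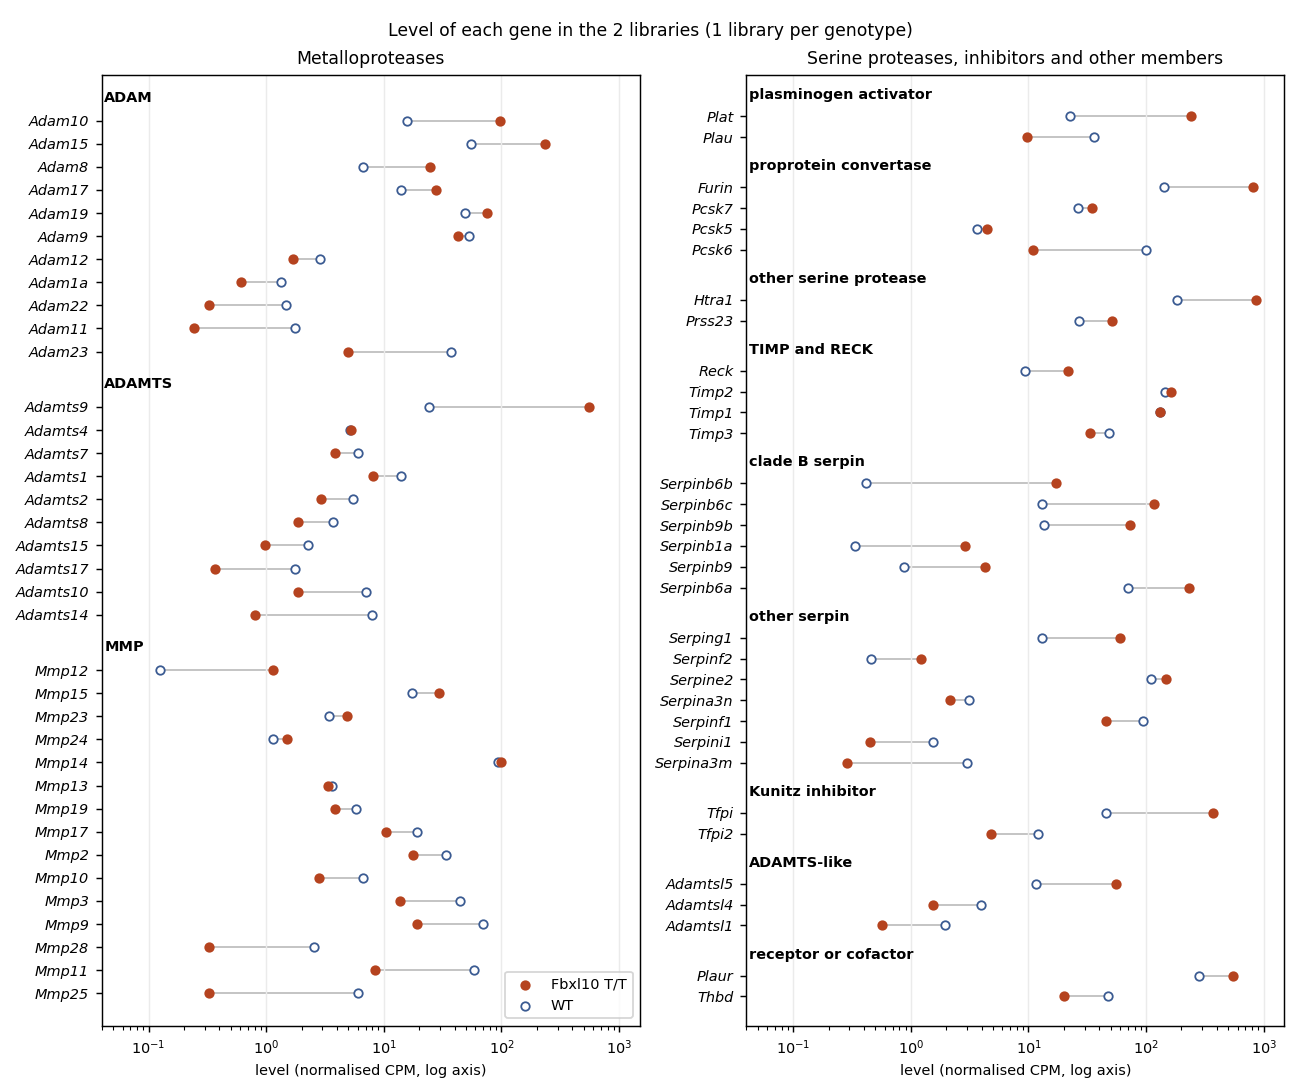
Level of each named gene in normalised CPM (log axis) in the Fbxl10 T/T library (filled points) and the WT library (open points), grouped by family and ordered by log2 ratio within it. Adamts9 has the longest line among the metalloproteases, at 559.2 CPM in Fbxl10 T/T and 24.3 CPM in WT, and all 6 clade B serpins have their filled point to the right.

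The 44 proteases had a median log2 ratio of -0.61, with 8 higher, 14 lower and 22 in between. The 20 inhibitors had a median of 0.62, with 9 higher, 4 lower and 7 in between. Over all genes, 14.8% were higher and 20.6% lower. Both medians stood beside 0.02 for all genes. They depended on members listed through 1 library only: among members that reached 1 CPM in each library the median was -0.10 for 35 proteases and 0.28 for 14 inhibitors, beside 0.12 for all such genes. The median of the 20 inhibitors also rested on the clade B serpins, and without these 6 genes it was -0.23.

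The sums were higher in Fbxl10 T/T for both classes. Protease transcripts summed to 3337 CPM in Fbxl10 T/T and 1222 CPM in WT, a ratio of 2.73, and inhibitor transcripts to 1592 CPM in Fbxl10 T/T and 999.5 CPM in WT, a ratio of 1.59. The 5 most abundant proteases in Fbxl10 T/T (Htra1, Furin, Adamts9, Plat and Adam15) supplied 2708 CPM there and 428.0 CPM in WT. The other 39 proteases summed to 628.8 CPM in Fbxl10 T/T and 794.1 CPM in WT. This split was made by the Fbxl10 T/T level. The authors' scaling leaves unequal column totals, and over all genes at 1 CPM or more the summed CPM had a ratio of 1.24. Per kilobase of merged exons, the protease sum was 1.19 times the inhibitor sum in Fbxl10 T/T and 0.772 times the inhibitor sum in WT. Htra1 alone held 298.7 of the protease sum of 634.7 per kilobase in Fbxl10 T/T and 64.2 of 286.2 in WT. The inhibitor sums were 535.3 in Fbxl10 T/T and 371.0 in WT. Only with Htra1 included did the protease sum exceed the inhibitor sum in Fbxl10 T/T. These are sums of RNA over unlike enzymes, and the inhibitors do not act on all of them.

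**Figure D2:**
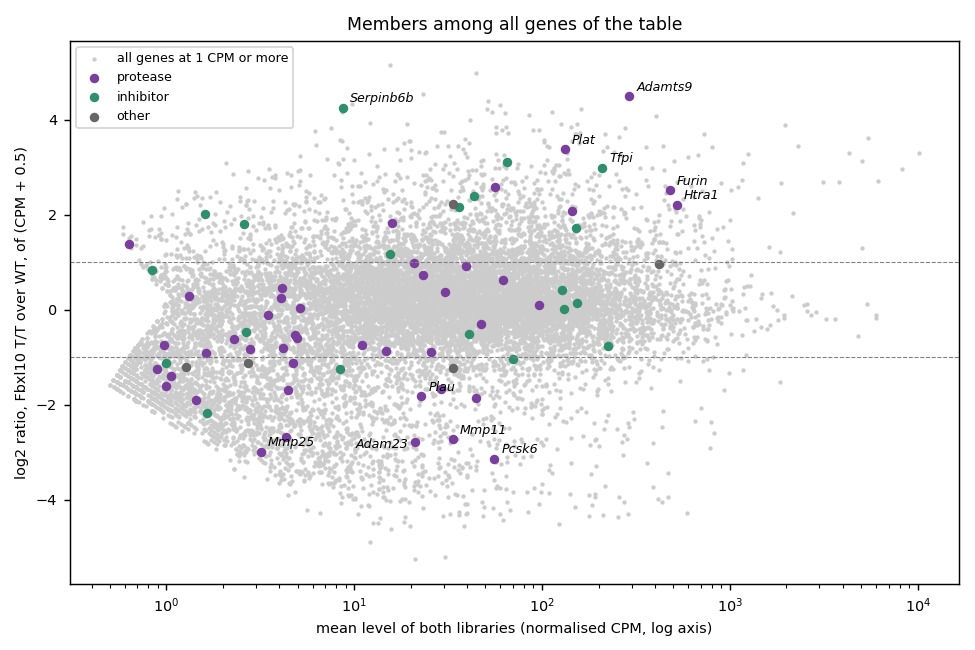
Log2 ratio of Fbxl10 T/T over WT against the mean CPM of both libraries (log axis) for all 13512 genes at 1 CPM or more (grey) and for the proteases, inhibitors and other members (coloured), with dashed lines at 2-fold. Adamts9 (log2 ratio 4.49) and Serpinb6b (4.26) lie near the upper edge of the cloud, and Pcsk6 (-3.13) lies in its lower part.

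Promoter sequences from RefSeq (GRCm38.p6) are shown for 4 members, because the Kdm2b protein binds CpG and these windows differ widely in it. Only 49 of the 69 members (71.0%) were in the promoter table, so no property of promoters was compared over the members. Among 17 members at 5 CPM or more whose window was free of annotated exons, those with the highest and lowest log2 ratio were taken for proteases (Adamts9 and Adam23) and for inhibitors (Serpinb6c and Timp1), a choice made after their values were seen. Timp1 was nearly level, at a log2 ratio of 0.009, so the inhibitor pair holds no lower gene. Serpinb6b (4.26) and Pcsk6 (-3.13), with more extreme ratios, were not among these 17. Each line gives the 250 bases before the start, 5′ to 3′, with every CpG in capitals.
Adamts9, chr6:92943535-92943784, minus strand: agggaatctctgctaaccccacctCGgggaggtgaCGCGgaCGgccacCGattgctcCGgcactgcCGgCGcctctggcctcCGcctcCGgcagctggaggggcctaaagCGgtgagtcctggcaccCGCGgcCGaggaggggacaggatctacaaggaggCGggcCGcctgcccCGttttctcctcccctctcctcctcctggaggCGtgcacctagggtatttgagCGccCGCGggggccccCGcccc
Adam23, chr1:63445641-63445890, plus strand: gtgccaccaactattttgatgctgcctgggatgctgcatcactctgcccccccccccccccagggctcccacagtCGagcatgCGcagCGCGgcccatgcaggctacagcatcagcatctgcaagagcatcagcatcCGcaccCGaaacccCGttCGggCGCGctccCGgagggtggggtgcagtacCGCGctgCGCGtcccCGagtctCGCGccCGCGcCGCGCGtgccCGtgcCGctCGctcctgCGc
Serpinb6c, chr13:33905192-33905441, minus strand: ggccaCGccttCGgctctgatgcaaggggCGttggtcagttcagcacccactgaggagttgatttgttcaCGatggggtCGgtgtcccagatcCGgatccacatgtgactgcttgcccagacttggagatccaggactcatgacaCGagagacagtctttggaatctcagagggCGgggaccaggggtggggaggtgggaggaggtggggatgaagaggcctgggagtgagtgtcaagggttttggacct
Timp1, chrX:20869916-20870165, plus strand: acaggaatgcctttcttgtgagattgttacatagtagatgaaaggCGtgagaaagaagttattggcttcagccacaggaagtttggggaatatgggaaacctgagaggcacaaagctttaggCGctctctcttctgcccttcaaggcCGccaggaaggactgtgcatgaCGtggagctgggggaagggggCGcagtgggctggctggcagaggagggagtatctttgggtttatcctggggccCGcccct
The windows hold 22 CpG at Adamts9, 27 at Adam23, 8 at Serpinb6c and 6 at Timp1, where the median of 32851 windows in the table was 6. The strongly higher Adamts9 and the strongly lower Adam23 thus both had CpG-dense windows, with a GC content of 71.2% and 70.4%. A GC box (GGGCGG on either strand, which contains 1 of the counted CpG) was found at Adamts9, Serpinb6c and Timp1 and is present in 32.7% of all windows. A GATA motif (AGATAA on either strand), found in 9.99% of all windows, was not among the letters of these 4.

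The 11 ADAM genes encode proteins of the membrane-anchored metalloprotease family. Of these genes, 3 were higher (14.8% of all genes were), 3 lower (20.6% of all genes were) and 5 in between. The 3 lower ones encode proteins without protease activity, and of the other 8 genes 3 were higher and none lower. Adam10, the sheddase of Notch receptors and E-cadherin (chromosome 9, 70526846 to 70628029 in mm9), was at 97.1 CPM in Fbxl10 T/T and 15.8 CPM in WT, 6.15-fold higher with a 95% counting interval of 5.51 to 6.87. Adam15, whose protein also binds integrins, was at 233.0 CPM in Fbxl10 T/T and 54.8 CPM in WT, 4.25-fold higher (4.01 to 4.52). Adam8, known from leukocytes, was at 24.9 CPM in Fbxl10 T/T and 6.70 CPM in WT, 3.72-fold higher (3.12 to 4.45). These intervals, and all others given here, are exact Clopper-Pearson intervals on recovered reads and cover counting error only.

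The remaining ADAM genes were in between or lower. Adam17, the sheddase of tumour necrosis factor, was at 27.8 CPM in Fbxl10 T/T and 13.9 CPM in WT, a ratio of 2.00 that fell just short of the threshold at a log2 ratio of 0.98. The meltrin genes were also in between, with Adam19 at 75.4 CPM in Fbxl10 T/T and 48.6 CPM in WT. Adam9 was at 42.4 CPM in Fbxl10 T/T and 52.5 CPM in WT, and Adam12 at 1.70 CPM in Fbxl10 T/T and 2.89 CPM in WT. All 3 genes for ADAM proteins without protease activity, which the symbol rule counts among the 44 proteases, were lower. Adam23, which encodes a neuronal surface protein, was at 4.98 CPM in Fbxl10 T/T and 37.3 CPM in WT, 7.48-fold lower (6.19 to 9.11). Adam11 was at 0.243 CPM in Fbxl10 T/T and 1.76 CPM in WT, and Adam22 at 0.324 CPM in Fbxl10 T/T and 1.47 CPM in WT, both on fewer than 50 reads and both under 1 CPM in Fbxl10 T/T, so that they were listed through WT alone. Adam1a, which encodes a sperm fertilin subunit, was at 0.608 CPM in Fbxl10 T/T and 1.34 CPM in WT, but its value is uncertain: 78.2% of its 36-base transcript stretches also occur in transcripts of other genes.

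ADAMTS genes, which encode secreted metalloproteases with thrombospondin repeats, were dominated by a single member in Fbxl10 T/T. Adamts9, which encodes a versican- and aggrecan-cleaving enzyme (chromosome 6, 92722693 to 92893486 in mm9), was at 559.2 CPM in Fbxl10 T/T, from 13804 reads, and 24.3 CPM in WT, from 581 reads. It was 23.0-fold higher, with an interval of 21.2 to 25.0, and 4 genes of the table, itself included, had a log2 ratio this high. Adamts9 made up 95.6% of the summed CPM of the 10 ADAMTS genes in Fbxl10 T/T and 31.4% in WT. None of the other 9 was 2-fold higher. Adamts14, which encodes a procollagen N-proteinase, was at 0.810 CPM in Fbxl10 T/T and 7.87 CPM in WT, 9.72-fold lower (6.12 to 16.3). Adamts10, whose protein binds fibrillin, was at 1.86 CPM in Fbxl10 T/T and 7.08 CPM in WT, 3.80-fold lower (2.73 to 5.38). Adamts17 was also lower, at 0.365 CPM in Fbxl10 T/T and 1.76 CPM in WT.

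The 6 remaining ADAMTS genes lay in between, all at low levels. Adamts1 and Adamts4 share proteoglycan substrates with Adamts9. Adamts1 was at 8.10 CPM in Fbxl10 T/T and 13.9 CPM in WT. Adamts4 was at 5.23 CPM in Fbxl10 T/T and 5.11 CPM in WT, a log2 ratio of 0.03 that turned negative with the libraries rescaled to a common median or upper quartile. Of these genes, Adamts2, for another procollagen N-proteinase, was at 2.92 CPM in Fbxl10 T/T and 5.49 CPM in WT. Adamts7 was at 3.85 CPM in Fbxl10 T/T and 6.07 CPM in WT. The neighbours Adamts8 and Adamts15 on chromosome 9 were close in ratio, at 1.86 and 0.972 CPM in Fbxl10 T/T and 3.68 and 2.26 CPM in WT. Among the substrate genes, Vcan (versican) was at 7.17 CPM in Fbxl10 T/T and 12.6 CPM in WT, and Acan (aggrecan) at 0.486 CPM in Fbxl10 T/T and 9.80 CPM in WT.

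ADAMTS-like genes encode matrix proteins that lack the protease domain, and they divided. Adamtsl5 was at 55.4 CPM in Fbxl10 T/T and 11.5 CPM in WT, 4.81-fold higher (4.22 to 5.50). Adamtsl4 was lower at 1.54 CPM in Fbxl10 T/T and 3.94 CPM in WT, and so was Adamtsl1 at 0.567 CPM in Fbxl10 T/T and 1.97 CPM in WT.

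**Figure D3:**
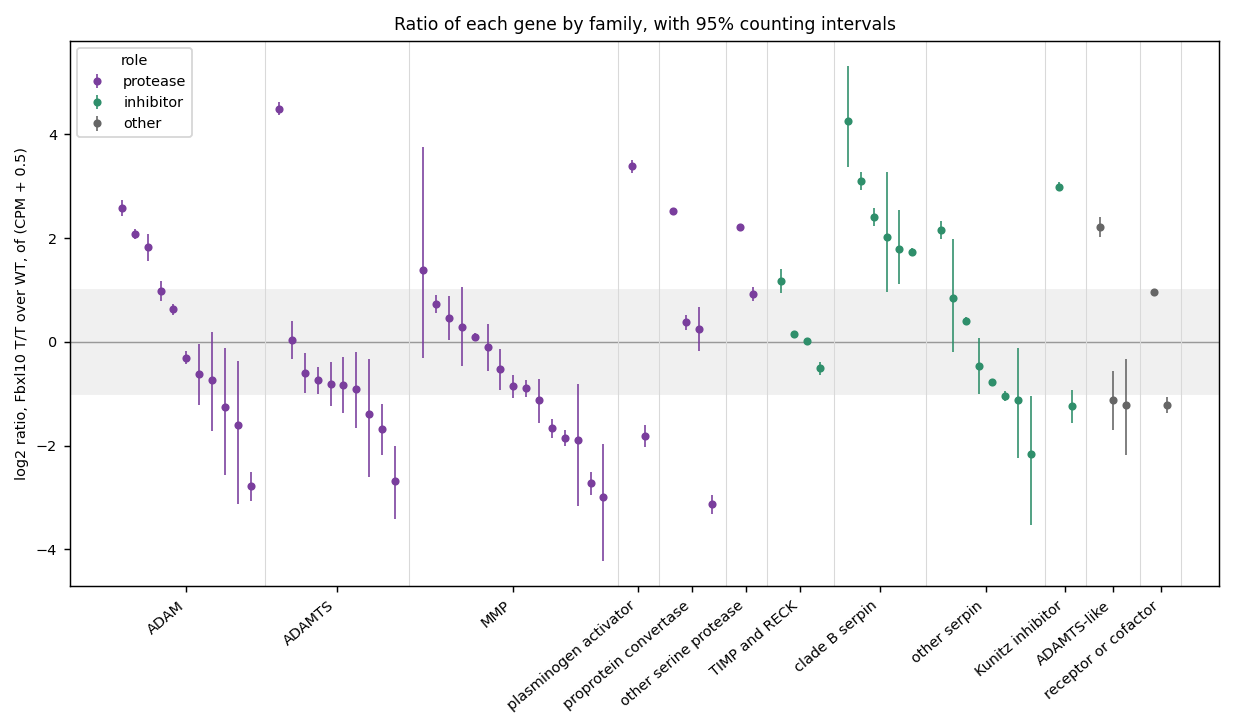
Log2 ratio of Fbxl10 T/T over WT on (CPM + 0.5) for each gene, by family and role, with bars for the 95% counting interval of the CPM ratio placed around the point, and grey shading for ratios within 2-fold. The 6 clade B serpins all lie above the shading, whereas the 15 MMP genes lie mostly within or below it, with 6 lower and 1 higher. Of all genes at 1 CPM, 14.8% were higher and 20.6% lower.

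MMP genes, which encode secreted or membrane-anchored matrix metalloproteases, were mostly lower or in between, with 6 of 15 lower (20.6% of all genes were), 1 higher (14.8% of all genes were) and 8 in between, and a median log2 ratio of -0.86. Of the lower ones, Mmp25 and Mmp28 were listed through WT alone. Their summed level was 215.8 CPM in Fbxl10 T/T and 365.3 CPM in WT. The difference lay in the 9 secreted enzymes, at 70.3 CPM in Fbxl10 T/T and 225.0 CPM in WT, while the 6 membrane-anchored ones summed to 145.5 CPM in Fbxl10 T/T and 140.2 CPM in WT. Mmp11 (stromelysin-3, chromosome 10, 75385967 to 75395220 in mm9), which furin can activate inside the cell, was at 8.43 CPM in Fbxl10 T/T and 58.6 CPM in WT, 6.95-fold lower (6.01 to 8.08). The gelatinase gene Mmp9 was at 19.0 CPM in Fbxl10 T/T and 69.8 CPM in WT, 3.67-fold lower (3.31 to 4.08). Mmp25, for a lipid-anchored enzyme, was at 0.324 CPM in Fbxl10 T/T, from 8 reads, and 6.03 CPM in WT, 18.6-fold lower with a wide interval of 9.19 to 43.9. Mmp28 was at 0.324 CPM in Fbxl10 T/T and 2.55 CPM in WT.

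The stromelysin genes Mmp3 and Mmp10 are neighbours on chromosome 9, where 4 MMP genes listed lie between 7272528 and 7510242 in mm9. Mmp3 was at 13.7 CPM in Fbxl10 T/T and 44.4 CPM in WT, 3.24-fold lower (2.87 to 3.68). Mmp10 was at 2.80 CPM in Fbxl10 T/T and 6.70 CPM in WT, 2.40-fold lower (1.80 to 3.23). They share 36-base stretches (10.3% of those of Mmp3 and 10.8% of those of Mmp10), so reads could be split between them. Mmp13, a collagenase gene of the same cluster, was at 3.32 CPM in Fbxl10 T/T and 3.601 CPM in WT. Mmp12, the macrophage elastase gene, was the MMP counted as higher, at 1.13 CPM in Fbxl10 T/T and 0.126 CPM in WT, but the WT value is 3 reads and the ratio of 9.03 has an interval of 2.79 to 46.4. The promoters of Mmp3 and Mmp10 are shown because they moved together and stromelysin promoters are known for AP-1 control. AP-1 is a dimer of FOS and JUN proteins. In both lines below, 250 bases before the RefSeq start, capitals mark the AP-1 motif TGANTCA, which reads the same on both strands.
Mmp3, chr9:7445572-7445821 (GRCm38.p6), plus strand: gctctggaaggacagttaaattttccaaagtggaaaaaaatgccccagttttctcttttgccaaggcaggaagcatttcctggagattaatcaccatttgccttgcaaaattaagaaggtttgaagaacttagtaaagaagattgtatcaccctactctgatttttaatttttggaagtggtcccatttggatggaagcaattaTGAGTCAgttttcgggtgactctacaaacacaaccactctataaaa
Mmp10, chr9:7502092-7502341 (GRCm38.p6), plus strand: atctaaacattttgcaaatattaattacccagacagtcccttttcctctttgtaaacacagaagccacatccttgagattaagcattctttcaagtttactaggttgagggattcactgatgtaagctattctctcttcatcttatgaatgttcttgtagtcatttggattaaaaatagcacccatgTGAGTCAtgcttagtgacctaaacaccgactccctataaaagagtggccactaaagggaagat
The motif begins 46 bases before the start at Mmp3 and 63 bases before it at Mmp10. It occurs in 6.75% of the 32851 windows in the table, and a match in letters does not show binding.

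The other MMP genes lay in between. Mmp14, whose membrane-anchored enzyme activates the Mmp2 proenzyme, was the most abundant MMP by CPM in both libraries, at 99.3 CPM in Fbxl10 T/T and 93.1 CPM in WT, and its log2 ratio of 0.09 turned negative after rescaling. Per kilobase it was at 15.6 in WT, below Mmp3 at 24.7, Mmp11 at 21.1 and Mmp9 at 19.7. Mmp2, the other gelatinase gene, was at 17.7 CPM in Fbxl10 T/T and 33.5 CPM in WT. Mmp15 was at 29.2 CPM in Fbxl10 T/T and 17.5 CPM in WT, and Mmp17 at 10.3 CPM in Fbxl10 T/T and 19.1 CPM in WT. Mmp19, Mmp23 and Mmp24 were at 3.85, 4.86 and 1.499 CPM in Fbxl10 T/T and at 5.78, 3.39 and 1.13 CPM in WT. Fibroblasts are known to express several of these enzymes, Mmp2 and Mmp3 among them. The 20 fibroblast markers, given above, summed to 874.8 CPM in Fbxl10 T/T and 1650.0 CPM in WT. Of them, 4 were lower and 16 lay in between, and their median log2 ratio was -0.84. The most abundant in WT, Fbln2 and Fstl1, were lower, at 237.3 and 79.5 CPM in Fbxl10 T/T and 545.6 and 372.0 CPM in WT. The part of fibroblast RNA in the lower MMP values was not tested.

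Against the lower MMP sum, the TIMP genes all lay in between. Timp1, the most abundant per length among the TIMP genes, was at 132.1 CPM in Fbxl10 T/T and 131.3 CPM in WT, with a ratio of 1.01 (0.958 to 1.06). Timp2 was at 161.4 CPM in Fbxl10 T/T and 146.1 CPM in WT, and the small positive log2 ratios turned negative after rescaling, for Timp1 to a common median or upper quartile and for Timp2 to the upper quartile. Timp3, whose protein is bound to matrix and also inhibits ADAM and ADAMTS enzymes, was at 33.6 CPM in Fbxl10 T/T and 48.1 CPM in WT. Reck, which encodes a membrane-anchored MMP inhibitor, was the only gene of this family past the threshold, at 21.8 CPM in Fbxl10 T/T and 9.42 CPM in WT, 2.31-fold higher (1.98 to 2.71). Rescaling to a common upper quartile left Reck in between. Per kilobase, the MMP sum was 0.265 times the TIMP sum in Fbxl10 T/T and 0.562 times the TIMP sum in WT.

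The plasminogen activators exchanged places. Plat, which encodes tissue-type plasminogen activator (chromosome 8, 23868226 to 23893309 in mm9), was at 241.5 CPM in Fbxl10 T/T and 22.7 CPM in WT, 10.7-fold higher (9.76 to 11.7). Plau, which encodes urokinase (chromosome 14, 21655929 to 21662610), was at 9.80 CPM in Fbxl10 T/T and 35.7 CPM in WT, 3.64-fold lower (3.16 to 4.22). Per kilobase, Plat was 9.34 times Plau in Fbxl10 T/T, and Plau was 4.16 times Plat in WT. Plaur, the urokinase receptor, did not follow its ligand: it was at 551.5 CPM in Fbxl10 T/T and 284.5 CPM in WT, a ratio of 1.94 (1.88 to 2.00) that lay in between at a log2 ratio of 0.95. Plaur was also the most abundant of all 69 members by CPM in WT. The gene for plasminogen itself, Plg, was not analysed here.

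Of Serpine2, Serpini1 and Serpinf2, whose proteins act on these activators or on plasmin, only Serpini1 was lower. Serpine2 and Serpinf2 lay in between, at positive log2 ratios of 0.41 and 0.84. Other serpins are given below, among them Serping1, which was higher. Serpine2, which encodes protease nexin-1, lay in between at 146.3 CPM in Fbxl10 T/T and 110.3 CPM in WT. Serpini1, for neuroserpin, was lower at 0.446 CPM in Fbxl10 T/T and 1.55 CPM in WT. Serpinf2, for the plasmin inhibitor alpha-2-antiplasmin, was at 1.22 CPM in Fbxl10 T/T and 0.461 CPM in WT, from 30 and 11 reads. Its neighbour Serpinf1, counted among the 20 inhibitors although it is a serpin without inhibitory activity, known as pigment epithelium-derived factor and expressed by fibroblasts, was at 45.7 CPM in Fbxl10 T/T and 94.7 CPM in WT, 2.07-fold lower (1.93 to 2.23).

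Proprotein convertase genes also differed in opposite directions. Furin (chromosome 7, 87534080 to 87547648 in mm9) was at 814.6 CPM in Fbxl10 T/T and 141.5 CPM in WT, 5.76-fold higher (5.55 to 5.97). Pcsk6, whose product PACE4 shares the Nodal precursor as a substrate with furin in the mouse embryo (chromosome 7, 73007099 to 73195220), was at 11.0 CPM in Fbxl10 T/T and 100.6 CPM in WT, 9.13-fold lower (8.05 to 10.4). Per kilobase, Furin was 41.8 times Pcsk6 in Fbxl10 T/T and 0.795 times Pcsk6 in WT. Pcsk7 was at 34.6 CPM in Fbxl10 T/T and 26.6 CPM in WT, and Pcsk5 at 4.46 CPM in Fbxl10 T/T and 3.68 CPM in WT. In a list of 11 genes for substrates of convertases and sheddases and related proteins, 7 were lower and 4 in between (median log2 ratio -1.82). Among all genes at 1 CPM, 14.8% were higher and 20.6% lower. Tdgf1 of this list was also counted among the ES cell markers. The list does not hold every substrate, and App, whose product Adam10 can shed, was at 603.1 CPM in Fbxl10 T/T and 189.0 CPM in WT, 3.19-fold higher. Nodal was at 34.1 CPM in Fbxl10 T/T and 182.6 CPM in WT, Bmp4 at 2.67 CPM in Fbxl10 T/T and 62.2 CPM in WT, and Cdh1 (E-cadherin) at 163.6 CPM in Fbxl10 T/T and 715.1 CPM in WT. The Adam10 substrate gene Notch1 was at 65.7 CPM in Fbxl10 T/T and 56.0 CPM in WT.

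Of the secreted serine proteases, Htra1 was the most abundant protease in both libraries. Htra1, whose protein degrades matrix components (chromosome 7, 138079749 to 138129167 in mm9), was at 860.1 CPM in Fbxl10 T/T and 184.8 CPM in WT, 4.65-fold higher (4.51 to 4.81). It supplied 25.8% of the protease sum in Fbxl10 T/T and 15.1% in WT. Prss23 was at 51.6 CPM in Fbxl10 T/T and 26.9 CPM in WT, a ratio of 1.92 that lay in between.

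**Figure D4:**
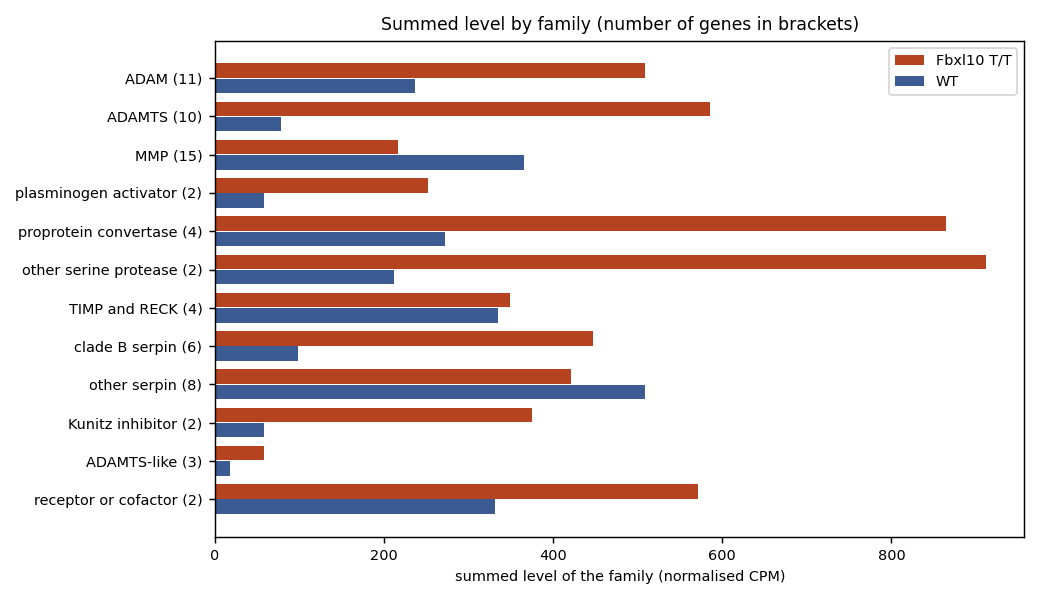
Summed level of each family in normalised CPM, with the Fbxl10 T/T library above the WT library in each pair of bars, and the number of genes in brackets. ADAMTS genes sum to 585.1 CPM in Fbxl10 T/T and 77.5 CPM in WT, the MMP genes are lower in Fbxl10 T/T, and the TIMP and RECK genes are nearly level at 348.9 CPM in Fbxl10 T/T and 334.9 CPM in WT.

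All 6 listed clade B serpins were higher in Fbxl10 T/T, where 14.8% of all genes at 1 CPM were. Clade B serpins mostly act inside cells because they lack a signal peptide. The 6 genes lie together on chromosome 13 between 32934603 and 34027865 in mm9. Serpinb6a, the most abundant by CPM, was at 233.6 CPM in Fbxl10 T/T and 70.1 CPM in WT, 3.33-fold higher (3.15 to 3.52). Serpinb6c was at 116.5 CPM in Fbxl10 T/T and 13.1 CPM in WT, 8.89-fold higher (7.90 to 10.02). Serpinb9b was at 73.2 CPM in Fbxl10 T/T and 13.5 CPM in WT, 5.43-fold higher (4.82 to 6.13). Serpinb6b was at 17.1 CPM in Fbxl10 T/T and 0.419 CPM in WT, where it had 10 reads, and was 40.7-fold higher with an interval of 21.9 to 85.6. Serpinb9, a granzyme B inhibitor gene, was at 4.29 CPM in Fbxl10 T/T and 0.879 CPM in WT. Serpinb1a, which encodes an inhibitor of neutrophil elastase, was at 2.88 CPM in Fbxl10 T/T and 0.335 CPM in WT, from 71 and 8 reads. Serpinb6b, Serpinb9 and Serpinb1a were under 1 CPM in WT and were thus listed through their Fbxl10 T/T level. Only Serpinb6a, Serpinb6c and Serpinb9b reached 1 CPM in both libraries, and 15.7% of all such genes were higher.

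These serpins are close paralogues, so part of their reads may be exchanged. Of 36-base stretches, 18.8% of those of Serpinb6c, 5.37% of those of Serpinb6b and 7.51% of those of Serpinb1a also occur in transcripts of other genes. The share was 1.87% for Serpinb6a, 2.95% for Serpinb9 and 3.02% for Serpinb9b. No other listed gene lies between the first and the last of the 6 on chromosome 13.

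**Figure D5:**
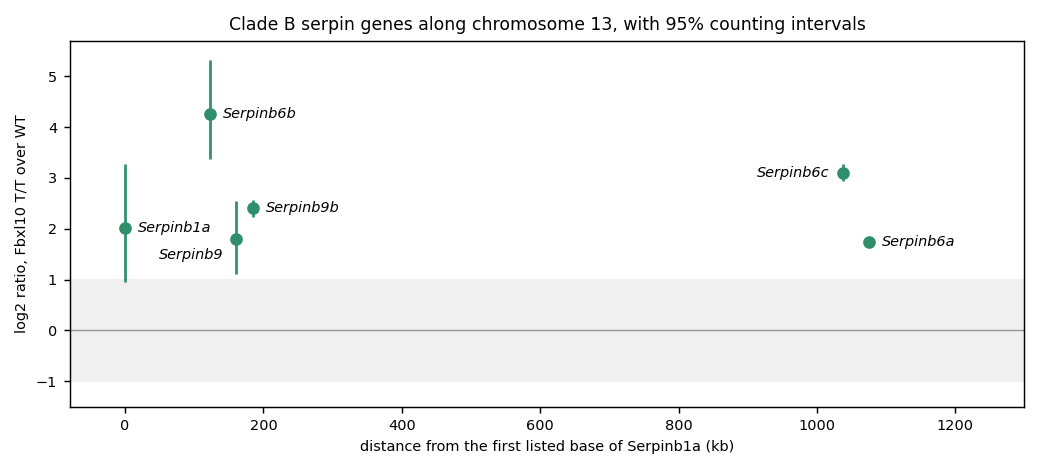
Log2 ratio of Fbxl10 T/T over WT for the 6 clade B serpin genes against their distance in kb from Serpinb1a on chromosome 13, with 95% counting intervals and grey shading for ratios within 2-fold. The 6 genes fall in groups of 4 and 2 within 1093 kb, and every point lies above the shading, from 1.73 (Serpinb6a) to 4.26 (Serpinb6b). Serpinb6b, Serpinb9 and Serpinb1a were listed through their Fbxl10 T/T level alone.

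The other serpins were mixed. Serping1, for the C1 inhibitor of the complement and contact systems (chromosome 2, 84605521 to 84615601), was at 59.7 CPM in Fbxl10 T/T and 13.02 CPM in WT, 4.58-fold higher (4.05 to 5.19). The antichymotrypsin relatives Serpina3m and Serpina3n were low, with Serpina3m at 0.284 CPM in Fbxl10 T/T and 3.01 CPM in WT and Serpina3n at 2.15 CPM in Fbxl10 T/T and 3.14 CPM in WT. Their values are uncertain, since 30.1% and 16.9% of their stretches occur in transcripts of other genes.

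Anticoagulant genes did not move in 1 direction. Tfpi, the inhibitor of the tissue factor complex that starts coagulation (chromosome 2, 84273012 to 84316932 in mm9), was at 370.1 CPM in Fbxl10 T/T, where it was the most abundant inhibitor by CPM, and 46.1 CPM in WT, 8.04-fold higher (7.55 to 8.56). Its relative Tfpi2, whose product inhibits plasmin, was at 4.78 CPM in Fbxl10 T/T and 11.98 CPM in WT, 2.51-fold lower (2.01 to 3.13). Thbd, for thrombomodulin, the thrombin-binding cofactor of protein C activation that is known from mouse parietal endoderm, was at 20.0 CPM in Fbxl10 T/T and 47.1 CPM in WT, 2.36-fold lower (2.12 to 2.63). It moved against the endoderm markers, of which 20 of 25 were higher.

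Of 16 measured genes for plasminogen, coagulation and clearance partners, 11 were higher, 2 lower and 3 in between (median log2 ratio 1.95). The list holds soluble factors and a chaperone as well as receptors. For comparison, 14.8% of all genes at 1 CPM were higher and 20.6% lower. F3, which encodes tissue factor, the target of the Tfpi protein, was at 299.9 CPM in Fbxl10 T/T and 45.2 CPM in WT, 6.63-fold higher (6.22 to 7.07). The thrombin receptor gene F2r was at 389.7 CPM in Fbxl10 T/T and 86.6 CPM in WT, and the protein C receptor gene Procr at 142.4 CPM in Fbxl10 T/T and 28.0 CPM in WT. Anxa2 and S100a10, whose products form a surface complex that binds plasminogen and its tissue-type activator, were at 1889 and 471.9 CPM in Fbxl10 T/T and 315.6 and 142.1 CPM in WT. The clearance receptors for complexes of proteases with serpins diverged. Lrp2 was at 2103 CPM in Fbxl10 T/T and 246.8 CPM in WT, and Lrp1 at 42.6 CPM in Fbxl10 T/T and 157.2 CPM in WT. Of the genes for matrix proteins that these enzymes can cut, 5 of 8 were higher and 2 lower, against the same shares of all genes. The 5 higher ones, collagen IV and laminin genes, were also counted among the endoderm markers above. Lama1 (laminin alpha-1) was at 10036 CPM in Fbxl10 T/T and 823.3 CPM in WT, and Fn1 (fibronectin) at 437.1 CPM in Fbxl10 T/T and 1418 CPM in WT.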

How the data were processed

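Gene expression was measured by RNA sequencing in 1 library of Fbxl10 T/T and 1 of wild-type ES cells. The submitters' processing notes name mm9, HTSeq 0.5.3p9, TopHat 1.4.1 and edgeR. The sources used here do not give their roles, the gene annotation or whether counting used strand. The deposited signal per gene is called normalised CPM; 100% of values were whole multiples of 1 read within 0.01 reads, with 0.0405 CPM per read in Fbxl10 T/T and 0.0419 in WT. The deposited log2 ratios of the authors, WT over Fbxl10 T/T, differed from recomputed ones by at most 0.00283 where both libraries reached 5 CPM (9311 genes). The 24706 rows held 13620 genes. Genes absent from 1 library had at least 22 reads (WT) or 29 reads (Fbxl10 T/T) in the other.

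The values of 1 member, which stays in the counts and sums, are not reported here. Members and lists were chosen with earlier results of these data known. Any member may be named. Folds with 95% Clopper-Pearson intervals are given mainly for members at 5 CPM past 2-fold, up to 5 at either end of a family, and for the most abundant. The limit was planned for role groups (protease, inhibitor, other) and was applied to families. Mmp12, under 5 CPM, and Timp1, within 2-fold, also have intervals. Intervals cover counting error only; PCR copies are not independent molecules. Levels per kilobase use merged exons of GENCODE M21, which also gave the 36-base stretches and current symbols. Alternatives were other pseudocounts, minimum levels, scalings and thresholds. Reads were also simulated for 13620 genes to try the 2-fold rule for Fbxl10 T/T over WT. It called 100% of genes given a 4-fold change, 100% given an 8-fold change and 0 of 13312 left unchanged. The genes given a change were drawn only from those with at least 100 reads in WT, so recovery at fewer reads was not tried. The simulated ratio fell inside its counting interval in 95.9% of cases. Changes between 2-fold and 4-fold were not scored, and the shares were not split by level. They therefore do not describe calls near 2-fold or for members with few reads. Variation between cultures is unknown here, so the 0 calls give no rate of false calls between real libraries. Python 3.11.15, numpy 2.4.6, pandas 2.3.3, scipy 1.17.1, matplotlib 3.10.9, R 4.3.3 and edgeR 4.0.16 were used.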

Additional observations from a re-analysis of the deposited data

How the results depend on the processing

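No paired analysis was possible because each genotype has a single library, so none could be left out either. The median log2 ratio of all members (-0.30) was 0.061 with a minimum of 5 CPM, -0.43 with a common median and -0.60 with a common upper quartile, scalings that moved the median of all genes (0.02) to -0.11 and -0.21. Over members at 1 CPM in both libraries (added after the data were seen) it was 0.030, the protease median (-0.61) was -0.10 and the inhibitor median (0.62) was 0.28. Under the other alternatives the protease median lay between -0.81 and -0.53 and the inhibitor median between 0.42 and 0.84, except without clade B serpins (-0.23). The 21 lower members became 13 with a minimum of 5 CPM, 12 with 1 CPM in both libraries, and 6 at a 4-fold threshold. In a comparison of the libraries added after the data were seen, edgeR on the recovered reads with an assumed coefficient of variation of 0.2 counted 18 members higher and 21 lower (15.2% and 20.9% of all genes, 2060 and 2818). With 0.4 it counted 9 and 7 (2.74% and 9.7% of all genes, 370 and 1311). The ratio of protease sums (2.73) was 2.49 with a common median, 2.31 with a common upper quartile, 2.22 per kilobase and 2.39 without Htra1. That of inhibitor sums (1.59) was 1.45, 1.35 and 1.44 under the first 3 of these. Of single members, 5 lost the 2-fold call with a pseudocount of 1 CPM (Mmp12, Adam22, Adamtsl1, Serpini1 and Adamtsl4), and Adamts15, Serpinf2 and Adam1a gained it with 0.1 CPM. Rescaling to the upper quartile removed Reck, left Mmp12 under 1 CPM in both libraries and added 6 lower members, among them Mmp17, Mmp2, Adamts8, Adamts15 and Adamts2; none of the called members changed sign. Restricting proteases by a zinc-binding motif was not run, as no protein sequences were used. Below 5 CPM in both libraries, 21 members rest on few reads.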

Other observations

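Other extracellular proteases and inhibitors, which the symbol rule left out, also divided between the libraries. Of 19 measured proteases 7 were higher, 6 lower and 6 in between, where 14.8% of all genes were higher and 20.6% lower. The cathepsin genes Ctsl (6598 CPM in Fbxl10 T/T and 1020 CPM in WT), Ctsb (1155 CPM in Fbxl10 T/T and 489.5 CPM in WT) and Ctsz (740.0 CPM in Fbxl10 T/T and 216.2 CPM in WT) were higher. The procollagen C-proteinase gene Bmp1 was at 202.9 CPM in Fbxl10 T/T and 76.4 CPM in WT. Genes for membrane-bound serine proteases of epithelia went both ways, with St14 (matriptase) at 12.1 CPM in Fbxl10 T/T and 168.5 CPM in WT and Prss8 (prostasin) at 72.0 CPM in Fbxl10 T/T and 17.4 CPM in WT. The matriptase inhibitor gene Spint1 was lower with St14, at 11.1 CPM in Fbxl10 T/T and 109.2 CPM in WT. Of 12 measured inhibitors and related proteins 4 were higher and 6 lower. Cst3 (cystatin C, a cathepsin inhibitor) was at 994.8 CPM in Fbxl10 T/T and 146.5 CPM in WT, and Spock1 at 88.0 CPM in Fbxl10 T/T and 9.42 CPM in WT. The procollagen C-proteinase enhancer genes Pcolce and Pcolce2 were lower, at 30.1 and 5.06 CPM in Fbxl10 T/T and 147.8 and 26.1 CPM in WT, while Bmp1 was higher.

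Genes beside the members did not always share their direction. Tfpi and Serping1, both higher, lie within 343 kb on chromosome 2, and none of the 7 other listed genes between them passed 2-fold (log2 ratios from -0.80 to 0.19). Pcsk6 and Adamts17, both lower, lie within 1290 kb on chromosome 7, and of the 7 other listed genes between them 2 were higher and 1 lower. Low members had the median log2 ratio of other low genes: it was -0.73 for the 21 members under 5 CPM in both libraries and -0.73 for all 2526 such genes.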
